A study of Mus musculus with 3 samples.

Results

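Marco-high Kupffer cells were described here in single-cell RNA profiles of mouse liver macrophages. They were selected on Marco itself: a Kupffer barcode counted as Marco-high when it held at least 2 Marco UMIs (unique molecular identifiers, 1 per captured RNA molecule). A Kupffer barcode had at least 1000 UMIs, at least 300 genes, at most 10% of its UMIs from mitochondrially encoded genes, and at least 1% of its UMIs from Clec4f, Cd5l, C1qa, C1qb and C1qc together. By this rule 2087 of 9081 Kupffer cells were Marco-high, out of 9842 barcodes that passed the UMI, gene and mitochondrial limits. Another 1639 Kupffer cells held 1 Marco UMI and 5355 held none. Marco, the other genes of the rule and the mitochondrial genes are therefore given as descriptions, without a test.

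Cells came from 3 male mice aged 8 weeks, 1 per diet: chow, 3 days or 10 days of a Lieber-DeCarli liquid diet containing 5% ethanol. The liver was perfused with collagenase, and its non-parenchymal fraction was sorted for live F4/80-high, CD11b-intermediate cells. Each mouse gave 1 droplet library (10x Genomics, v2 chemistry for 3' ends). The control ate chow and not a liquid diet without ethanol, and no strain was given in the labels. With 1 mouse and 1 library per diet, diet, mouse and library cannot be told apart. Marco-high and Marco-zero cells of 1 library shared the mouse, the diet and the run, and the 3 mice served as replicates of that comparison.

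Marco encodes the macrophage receptor with collagenous structure, a trimeric class A scavenger receptor of the cell surface that binds bacteria, lipopolysaccharide, modified lipoproteins and inert particles. In the liver it is found on a part of the Kupffer cells, the resident macrophages of the sinusoids that clear particles, bacteria and aged red cells from portal blood. Tests of what else distinguishes these cells concern genes of antigen presentation, chemokines, lipid transport, haem breakdown and cell division.

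The libraries held between 16538895 and 21650747 UMIs, and the median depth of a Kupffer cell was 4675 UMIs on chow, 3117 after 3 days and 3080 after 10 days. Between 2767 and 4061 barcodes passed the limits per library. Pairs of libraries shared between 7 and 17 Kupffer barcodes, of which 1 or 2 were Marco-high in both. The automatic threshold of the doublet caller Scrublet marked 0% of cells in each library, so it did not work here and no cell was removed as a doublet.

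The Marco-high class was present in every library. It held 618 of 2537 Kupffer cells in chow, which is 24.4% (exact Clopper-Pearson 95% interval 22.7% to 26.1%). At 3 days it held 717 of 3820 cells, 18.8% (17.5% to 20.04%), and at 10 days 752 of 2724 cells, 27.6% (25.9% to 29.3%). Chow cells were the deepest, which bears on these shares. With every cell thinned to 1500 UMIs, the shares were 9.90% of 2425 cells in chow (8.74% to 11.2%), 10.7% of 3502 cells at 3 days (9.73% to 11.8%) and 18.0% of 2500 cells at 10 days (16.5% to 19.6%). The order of chow and 3 days thus reversed with thinning, where their intervals overlapped, and the 10-day library had the highest share both ways. These intervals cover counting error only, and 112, 318 and 224 cells with fewer than 1500 UMIs were left out.

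Marco UMIs formed a long range and no gap separated the class from the other cells. Marco-high cells had a median of 4 Marco UMIs in all 3 libraries and maxima of 100 in chow, 68 at 3 days and 46 at 10 days. Just inside the threshold, 175, 219 and 209 cells in chow, at 3 days and at 10 days held exactly 2 Marco UMIs. Just outside it, 450, 619 and 570 cells held exactly 1. Cells with 10 or more Marco UMIs numbered 95, 95 and 143, and they held 41.0%, 34.0% and 44.3% of all Marco UMIs of the Kupffer cells. Over all Kupffer cells Marco reached 329 CPM (UMIs of the gene, scaled to a common total so that depth drops out) on chow, 346 CPM after 3 days and 594 CPM after 10 days.

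**Figure D1:**
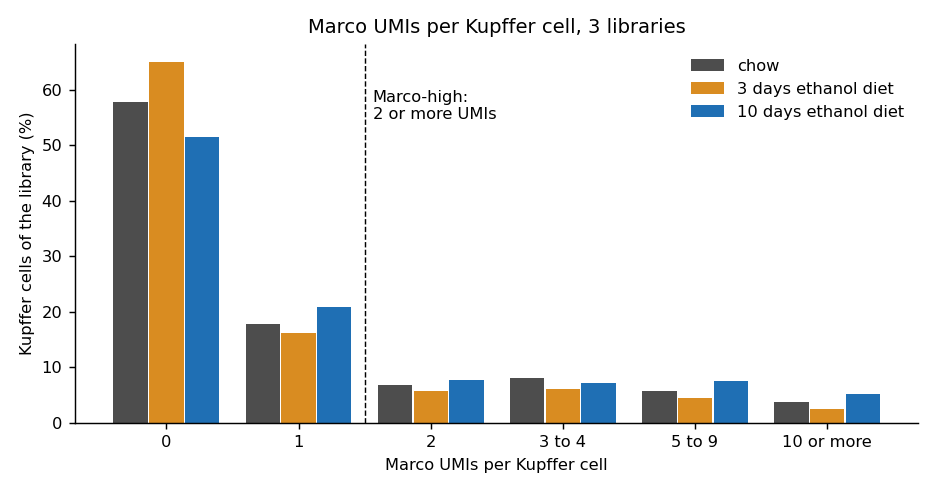
Share of Kupffer cells (%, y axis) by number of Marco UMIs (x axis) in the chow, 3-day and 10-day libraries, 1 bar per library, with the dashed line at the Marco-high threshold. Cells without a Marco UMI were the most frequent class in each library, and the share with 10 or more was 3.74% in chow, 2.49% at 3 days and 5.25% at 10 days.

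Free RNA contained Marco at a like level. Barcodes with at most 100 UMIs, which are mostly empty droplets, had Marco at 365 CPM on chow, 374 CPM after 3 days and 603 CPM after 10 days. Among barcodes below the Kupffer limit of 1%, whose cell types were not determined here, 2 or more Marco UMIs were seen in 4 of 230 (1.74%), 4 of 241 (1.66%) and 11 of 290 (3.79%). Their median depth was 3466.5, 2511 and 2342.5 UMIs, against 4675, 3117 and 3080 in Kupffer cells. The share of Marco-high cells among Kupffer barcodes was above the share among barcodes below the limit in each library.

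Both Marco classes carried the Kupffer markers Timd4 and Vsig4, which the rule had not used. For the comparison, 612 Marco-high cells in chow, 717 at 3 days and 738 at 10 days were matched to equally many Marco-zero cells of the same library and depth, and their UMIs were summed. Timd4, a phosphatidylserine receptor of embryo-derived Kupffer cells, stood at 493, 471 and 486 CPM in Marco-high cells (chow, 3 days, 10 days) and at 474, 453 and 466 CPM in Marco-zero cells. Its log2 difference was 0.02 ± 0.04 (SE, 3 libraries) with an adjusted p of 0.875. Vsig4, a complement receptor of resident macrophages, stood at 3133, 3537 and 3476 CPM against 3257, 3452 and 3466 CPM. Its difference was -0.04 ± 0.03, adjusted p = 0.520. Cells without a Timd4 UMI made up 15.5%, 26.5% and 24.8% of matched Marco-high cells and 15.7%, 26.4% and 26.7% of Marco-zero cells. All adjusted p-values are from edgeR's quasi-likelihood test on summed UMI counts with the library as a term and Benjamini-Hochberg adjustment over 9506 genes. This fit left 2 residual degrees of freedom, so very small p-values rest on a spread estimated across genes as well as within each gene.

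The 5 genes of the Kupffer rule were also high in both classes, and their values are a description. Cd5l, a secreted scavenger protein, stood at 5556, 6053 and 6043 CPM in Marco-high cells and 5144, 5558 and 5620 CPM in Marco-zero cells. The lectin gene Clec4f stood at 3972, 3822 and 3862 CPM against 4148, 4112 and 4296 CPM, and C1qb at 3665, 2566 and 1993 CPM against 4345, 3109 and 2530 CPM. Cd5l was thus higher, and Clec4f and C1qb lower, in the Marco-high cells of every library.

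Over all genes, 160 of 9506 were higher in Marco-high cells (1.68%) and 230 were lower (2.42%), at an adjusted p under 0.05. Of these, 159 and 223 had the same sign in all 3 libraries. Most differences were small, and 24 called genes differed by more than 1 on the log2 scale. The split between higher and lower depended on the scaling. With plain totals in place of TMM scaling 234 genes were higher and 124 lower, and with DESeq2, which gave an adjusted p for 476 genes, 31 were higher and 92 lower. The counts also depended on single libraries: 29 higher and 67 lower were called without the chow mouse, 42 and 66 without the 3-day mouse, and 68 and 95 without the 10-day mouse. In each of these 3 fits, all 160 and 230 genes kept their direction. They had been chosen on the same mice, so this is no separate support.

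The chemokine genes Cxcl13, Cxcl9 and Cxcl10 were among the genes with the largest increases. Cxcl13 encodes the ligand of CXCR5, which draws B cells and follicular helper T cells and helps to build lymphoid follicles. It stood at 398, 398 and 325 CPM in the Marco-high cells of the chow, 3-day and 10-day mice and at 205, 178 and 107 CPM in the matched Marco-zero cells. Every Marco-high value lay above every Marco-zero value. The log2 difference was 1.16 ± 0.06 (SE), adjusted p = 7.2e-19 by edgeR's quasi-likelihood test. The adjusted p by this test was 1.8e-04 with no filter on low counts and 6.7e-04 without the chow mouse. It was 0.580 without the library as a term, where Cxcl13 was not called. Cxcl13 was seen in 43.6%, 30.5% and 26.3% of Marco-high cells and in 36.9%, 21.6% and 21.5% of Marco-zero cells. Its 10 cells with the most Cxcl13 UMIs held 11.5% of them. With 5 or more Marco UMIs as the limit the log2 difference was 1.81, chosen as a setting after seeing the data.

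Cxcl9 and Cxcl10, whose products attract T cells and NK cells through CXCR3, rested on few cells. Cxcl9, named after its values were seen, stood at 62.0, 38.0 and 58.4 CPM in Marco-high cells and 16.9, 12.8 and 14.7 CPM in Marco-zero cells. Cxcl10 stood at 48.2, 62.8 and 63.0 CPM against 21.8, 30.2 and 16.6 CPM. For both genes the classes did not overlap between libraries. The log2 differences were 1.79 ± 0.13 for Cxcl9 (adjusted p = 7.4e-15) and 1.29 ± 0.12 for Cxcl10 (adjusted p = 1.2e-10). The 10 cells with the most UMIs, over both classes and all libraries, held 54.3% of the Cxcl9 UMIs and 42.0% of the Cxcl10 UMIs. Cells with any UMI of either gene made up 10.3%, 9.90% and 7.05% of Marco-high cells and 9.97%, 7.39% and 5.96% of Marco-zero cells. A setting added after seeing the data left out the 10 cells per library richest in both chemokines. Neither gene was called then, at 0.69 for Cxcl9 (adjusted p = 0.254) and 0.26 for Cxcl10 (adjusted p = 0.426) by edgeR's quasi-likelihood test. Those cells were chosen on the UMIs of the tested genes, so a smaller difference was built into this setting. After matching on the share of ribosomal protein UMIs as well, the differences were 0.47 for Cxcl9 (adjusted p = 0.280) and 0.29 for Cxcl10 (adjusted p = 0.708). A limit of 5% mitochondrial UMIs left 244, 292 and 84 pairs of cells, against 612, 717 and 738 in the main fit. The differences were then 0.52 for Cxcl9 (adjusted p = 0.454) and 0.64 for Cxcl10 (adjusted p = 0.0579) by edgeR's quasi-likelihood test. Neither was called there.

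The MHC class II genes were lower, with the most decreases of the 25 gene lists. Called genes were abundant, with a median level of 310 CPM for lower and 110 CPM for higher genes, against 26.6 CPM for all tested. How far the number called in a list followed from the level of its members was not tested. The products of the class II genes present peptides from engulfed material to CD4 T cells. Of 11 tested list members, 7 were lower in Marco-high cells (H2-Eb1, Cd74, H2-Ab1, H2-Aa, H2-DMb1, H2-DMa and Ctss) and 0 were higher. The counts of this and the other lists stand beside 1.68% higher and 2.42% lower over all genes. The median log2 difference of the list was -0.23, against -0.00199 over all genes tested. The list's UMIs summed to 15342, 11984 and 10738 CPM in Marco-high cells and 19238, 15258 and 13477 CPM in Marco-zero cells, lower in each library. Without the chow, 3-day or 10-day mouse 5, 5 and 6 members were called lower, and 0 were higher. Of 18 tested genes of MHC class I and the immunoproteasome, 4 were lower (H2-Q4, H2-T23, B2m and H2-D1) and 1 was higher (H2-K1). The median of that list was -0.08. B2m, at -0.15 ± 0.03, was not called without the chow mouse, and H2-Q4 and H2-T23 were not called when any single mouse was left out.

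H2-Eb1, the beta chain of the I-E molecule, stood at 1450, 1101 and 919 CPM in Marco-high cells and 1912, 1494 and 1281 CPM in Marco-zero cells. The levels fell from chow to 10 days in both classes, so the classes overlapped between libraries, but Marco-high was the lower of the pair in every library. Its log2 difference was -0.47 ± 0.03 (edgeR's quasi-likelihood test, adjusted p = 1.9e-16). Cd74, the invariant chain that guides class II molecules to endosomes, stood at 6158, 4597 and 4085 CPM against 8051, 6175 and 5404 CPM. Its difference was -0.44 ± 0.03, adjusted p = 1.4e-16. H2-Ab1, the beta chain of I-A, stood at 1998, 1426 and 1351 CPM against 2582, 1939 and 1694 CPM, a difference of -0.42 ± 0.03 with an adjusted p of 7.4e-15. H2-Aa, the alpha chain of I-A, stood at 2152, 1696 and 1520 CPM against 2631, 2168 and 1865 CPM. H2-Eb1, Cd74, H2-Ab1 and H2-Aa were called in 20 of 21 alternative settings each, the exception being the fit without the library as a term.

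The stretches before the transcription starts are shown for the class II genes H2-Aa and H2-Eb1, which fell, and for Cxcl9 and Cxcl10, which rose, because they hold the same 8 letters. The letters CTGATTGG, here called the Y box, match a site of class II promoters that the factor NF-Y is known to bind, and they were searched on both strands in the 250 bases before each start. They occurred in 1258 of 32851 RefSeq promoters, 3.83%. Each line gives the last 150 bases before the start on the gene's strand (RefSeq, GRCm38.p6), with the match or its reverse complement CCAATCAG in capitals. The H2-Aa stretch lies at chr17:34287824-34287973 on the minus strand, H2-Eb1 at chr17:34305717-34305866 on the plus strand, Cxcl9 at chr5:92328080-92328229 and Cxcl10 at chr5:92348890-92349039, both on the minus strand.
H2-Aa: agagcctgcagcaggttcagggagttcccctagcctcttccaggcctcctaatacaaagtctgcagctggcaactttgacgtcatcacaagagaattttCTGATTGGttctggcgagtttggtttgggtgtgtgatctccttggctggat
H2-Eb1: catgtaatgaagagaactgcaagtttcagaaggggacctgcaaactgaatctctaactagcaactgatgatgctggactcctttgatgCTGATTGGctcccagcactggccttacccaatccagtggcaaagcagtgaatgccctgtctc
Cxcl9: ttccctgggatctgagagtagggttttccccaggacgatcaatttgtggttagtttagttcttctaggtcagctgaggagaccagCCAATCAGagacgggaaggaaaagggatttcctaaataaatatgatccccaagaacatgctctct
Cxcl10: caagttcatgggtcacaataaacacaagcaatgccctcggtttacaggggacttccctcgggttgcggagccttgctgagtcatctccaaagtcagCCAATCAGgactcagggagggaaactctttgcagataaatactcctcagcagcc

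The match began 51 bases before the start in H2-Aa and 62 in H2-Eb1, on the gene's own strand. In Cxcl9 it began 65 bases and in Cxcl10 54 bases before the start, on the opposite strand. The letters were thus in promoters of genes that were lower and of genes that were higher in Marco-high cells. The same letters were not in these windows of Marco and Cxcl13, shown for comparison as the selecting gene and the gene with the lowest adjusted p among the increases, at chr1:120505025-120505174 on the minus strand and chr5:95956789-95956938 on the plus strand. The letters TTCNNNGAA, the core of STAT sites, were in none of the 6 windows and in 7.02% of all promoters. Such matches describe the letters only.
Marco: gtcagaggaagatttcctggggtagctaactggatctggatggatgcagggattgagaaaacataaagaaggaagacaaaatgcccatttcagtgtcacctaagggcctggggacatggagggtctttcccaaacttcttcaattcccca
Cxcl13: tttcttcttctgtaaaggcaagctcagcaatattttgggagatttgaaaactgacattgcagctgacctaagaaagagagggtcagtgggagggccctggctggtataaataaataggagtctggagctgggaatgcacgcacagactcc

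Lipid transport genes split. Apoe, the apolipoprotein that macrophages secrete with cholesterol, stood at 10423, 9613 and 7306 CPM in Marco-high cells and 14295, 12969 and 10185 CPM in Marco-zero cells. Marco-high was the lower of the pair in each library, with a log2 difference of -0.49 ± 0.03 (edgeR's quasi-likelihood test, adjusted p = 8.0e-18). Apoc1, which lies beside Apoe in the same gene cluster, stood at 5058, 4700 and 3805 CPM against 5989, 6025 and 5201 CPM, a difference of -0.39 ± 0.03. Among 19 tested targets of the sterol receptor LXR, 3 were lower (Apoe, Apoc1 and the phospholipid transfer protein gene Pltp) and 4 were higher (Scd1, Scd2, Lpl and Nr1h3). Scd2, a desaturase, stood at 77.7, 70.3 and 131 CPM against 54.4, 58.1 and 88.7 CPM, with a difference of 0.43 ± 0.09 that was not called without the chow or without the 10-day mouse. Lpl, the lipase that frees fatty acids from lipoproteins, stood at 1696, 2226 and 2778 CPM against 1322, 1849 and 2286 CPM, a difference of 0.27 ± 0.03. The median of the list was 0.06. Of 27 tested genes of fatty acid uptake, storage and oxidation, 0 were higher and 1 was lower, the fatty acid binding protein gene Fabp7 at -0.22 ± 0.04, which was not called without the chow or without the 10-day mouse. The fatty acid counts were near the shares over all genes, 1.68% higher and 2.42% lower, while the LXR counts lay above them.

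**Figure D2:**
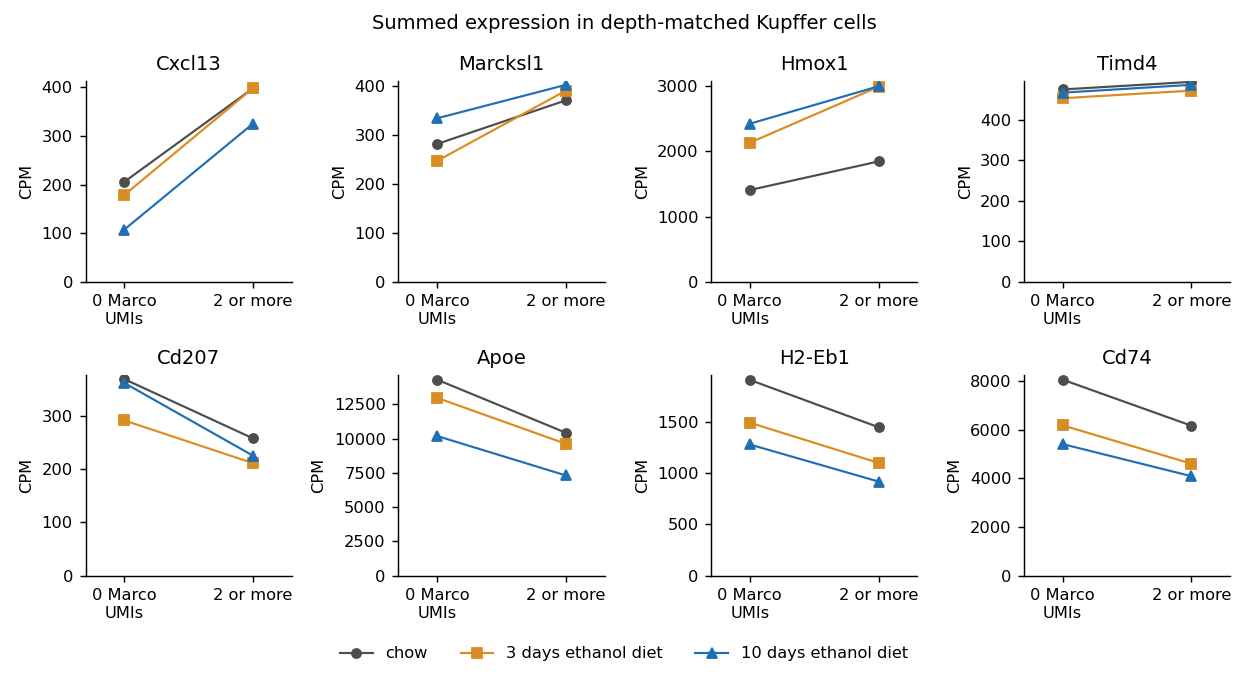
Summed expression (CPM, y axis) of 8 genes in Kupffer cells with 0 Marco UMIs and with 2 or more (x axis), with equal numbers of cells matched on depth. Each line joins the pair of sums from 1 library (1 mouse). The lines rise for Cxcl13, Marcksl1 and Hmox1, fall for Cd207, Apoe, H2-Eb1 and Cd74, and for Timd4 the log2 difference was 0.02.

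Among haem and redox genes, Hmox1 was higher. Hmox1 encodes haem oxygenase 1, which opens the haem ring and yields iron, carbon monoxide and biliverdin. It stood at 1845, 2990 and 2998 CPM in Marco-high cells and 1406, 2131 and 2422 CPM in Marco-zero cells, higher in each library. The log2 difference was 0.36 ± 0.03 (edgeR's quasi-likelihood test, adjusted p = 2.5e-12). Of 22 tested NRF2 targets, 6 were higher (Hmox1, Txnrd1, Gsr, Prdx1, Tkt and Fth1) and 1 was lower (Ftl1), with a list median of 0.07. Txnrd1, thioredoxin reductase, stood at 140, 121 and 141 CPM against 106, 99.2 and 109 CPM, a difference of 0.32 ± 0.07. Gsr, glutathione reductase, stood at 181, 266 and 229 CPM against 148, 202 and 203 CPM, a difference of 0.25 ± 0.06. Without the chow mouse or without the 3-day mouse 1 NRF2 target was called higher, and without the 10-day mouse 4 were, so that Txnrd1 and Gsr were not called in the first pair of fits.

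Hebp1, a haem-binding protein gene, stood at 206, 146 and 251 CPM in Marco-high cells and 158, 109 and 168 CPM in Marco-zero cells. Its log2 difference was 0.43 ± 0.06. Spic, the factor that red pulp and other iron-recycling macrophages need, stood at 129, 137 and 103 CPM against 101, 107 and 79.3 CPM. Its difference was 0.32 ± 0.07, adjusted p = 0.00426 by edgeR's quasi-likelihood test, and it was not called without the chow mouse or without the 3-day mouse. Of 26 tested haem and iron genes 4 were higher and 3 lower, with Fth1 at 0.12 ± 0.03 and Ftl1 at -0.10 ± 0.03. Ftl1 was at 0.00929 against all Marco-zero cells and at 0.0268 with thinned cells, so its direction depended on the matching. With plain totals no NRF2 target was lower, so the direction of Ftl1 was not called under that scaling. Neither chain was called when any single mouse was left out.

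Of 14 other scavenger receptors tested, 0 were higher and 2 (Cd207 and Cd68) were lower, beside 1.68% higher and 2.42% lower over all genes. Cd68, at -0.17 ± 0.04, was called in 6 of 21 alternative settings and not when any single mouse was left out. Msr1, the scavenger receptor A that is closest to Marco in kind, stood at 374, 343 and 406 CPM in Marco-high cells and 360, 308 and 416 CPM in Marco-zero cells, a log2 difference of 0.02 ± 0.04. Cd163, the haptoglobin-haemoglobin receptor, stood at 572, 1105 and 618 CPM against 533, 1164 and 581 CPM, a difference of -0.01 ± 0.04. Mrc1, the mannose receptor, stood at 841, 1314 and 1445 CPM against 804, 1232 and 1305 CPM, a difference of 0.07 ± 0.03. Cd36 stood at 115, 205 and 310 CPM against 111, 184 and 271 CPM, a difference of 0.11 ± 0.06. For Msr1, Cd163, Mrc1 and Cd36 the adjusted p by edgeR's quasi-likelihood test lay between 0.293 and 0.966.

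Cd207, the langerin gene, was the scavenger list member with the largest decrease. This lectin binds mannose and is known from Langerhans cells. It stood at 258, 211 and 225 CPM in Marco-high cells and 370, 292 and 362 CPM in Marco-zero cells, and no Marco-high value reached a Marco-zero value. The log2 difference was -0.59 ± 0.05 (edgeR's quasi-likelihood test, adjusted p = 6.0e-13). Cells with a Cd207 UMI made up 48.2%, 35.8% and 37.1% of the Marco-high class and 60.9%, 44.9% and 47.7% of the Marco-zero class. Of 17 tested genes for the uptake of dying cells 0 were called, and of 22 tested genes for sensing of lipopolysaccharide and microbes 0 were called. Of 11 tested markers of the Cd36 and Esam subset of Kupffer cells 0 were called as well, and cells with 2 or more Cd36 UMIs made up 15.2%, 19.0% and 28.5% of Marco-high and 14.2%, 16.5% and 26.0% of Marco-zero cells. Members of these 3 lists at 20 CPM or more included Dock1 at 0.38 ± 0.14, Tlr1 at 0.24 ± 0.12, Stab1 at -0.29 ± 0.10 and Pecam1 at 0.17 ± 0.10 on the log2 scale, none of which was called. The Cd36 and Esam list had a median of -0.22. Over all genes 1.68% were called higher and 2.42% lower, so 0 calls in each of these lists lay near those shares.

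Of 17 tested genes of complement and opsonin uptake 5 were lower, Fcgr3 and Fcer1g among them, and 2 were higher (C3 and Fcna). Fcgr3, an activating receptor for immunoglobulin G, stood at 349, 400 and 298 CPM in Marco-high cells and 427, 501 and 355 CPM in Marco-zero cells, a log2 difference of -0.33 ± 0.04. The adaptor gene Tyrobp, which carries the signal of Trem2 and other receptors, stood at 3237, 2518 and 1950 CPM against 3697, 3075 and 2492 CPM, a difference of -0.31 ± 0.03. Fcer1g, the shared gamma chain, differed by -0.20 ± 0.03, and Lyz2, the lysozyme gene, by -0.29 ± 0.03. Trem2, a lipid receptor, stood at 40.8, 40.2 and 21.9 CPM against 42.7, 60.7 and 34.4 CPM, a difference of -0.44 ± 0.11 that was not called when any single mouse was left out. C3, the central complement component, differed by 0.88 ± 0.15 and Fcna, a ficolin, by 0.13 ± 0.03. C3 stood at 27.3, 37.6 and 30.5 CPM against 14.1, 21.1 and 15.5 CPM, and the classes did not overlap. C3 was not called without the chow mouse, nor Fcna without the chow or without the 3-day mouse.

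Other Kupffer identity genes did differ between the classes: 6 of 23 tested genes were higher and 5 were lower, and the median was -0.04. Adgre1, which encodes F4/80, stood at 933, 880 and 948 CPM in Marco-high cells and 863, 742 and 821 CPM in Marco-zero cells, a log2 difference of 0.15 ± 0.03. Nr1h3, the gene of LXR alpha, differed by 0.13 ± 0.04, Folr2 by -0.17 ± 0.03 and Id3 by -0.21 ± 0.03. Folr2 was not called without the chow mouse, Adgre1 without the 3-day or without the 10-day mouse, and Nr1h3 without any single mouse. Gfra2, a receptor for neurturin, was among the 12 highest differences of called genes with a mean of at least 50 CPM and stood at 48.5, 63.6 and 103 CPM against 29.5, 36.6 and 62.3 CPM. Its difference was 0.71 ± 0.10, adjusted p = 2.2e-06 by edgeR's quasi-likelihood test.

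Of 23 tested adhesion genes 5 were higher and 1 was lower, with a median of 0.04. Vcam1, which binds the integrin VLA-4 on leukocytes, stood at 352, 1050 and 307 CPM in Marco-high cells and 303, 895 and 212 CPM in Marco-zero cells. The 3-day library was high in both classes, and within each library Marco-high was higher, by 0.26 ± 0.04 on the log2 scale. It was not called without the chow mouse. Sdc4, a heparan sulfate proteoglycan, stood at 22.1, 47.8 and 36.2 CPM against 15.7, 21.5 and 14.7 CPM, a difference of 0.96 ± 0.15 that was not called without the 3-day mouse. Of 29 tested genes of endocytosis and actin 5 were higher and 2 were lower, with a median of 0.01. Dab2, an endocytic adaptor, was lower at -0.22 ± 0.05 and was not called without the chow or without the 3-day mouse. Marcksl1, a regulator of actin, stood at 371, 391 and 403 CPM against 282, 247 and 334 CPM, with no overlap. Its difference was 0.40 ± 0.05, adjusted p = 1.0e-07 by edgeR's quasi-likelihood test, and it was not called without the chow mouse.

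The other genes named for large increases were Plpp3, Tmem65, Sept9, Sod2, Uba2 and Sec23b, with log2 differences between 0.37 and 0.51. Sod2, the mitochondrial superoxide dismutase, stood at 146, 148 and 147 CPM in Marco-high cells and 96.2, 111 and 113 CPM in Marco-zero cells. Plpp3, a lipid phosphatase, stood at 73.7, 65.8 and 79.6 CPM against 46.1, 36.6 and 69.1 CPM. Uba2 and Sec23b, at 0.37 each, were called in 6 of 20 alternative settings and were not called when any single mouse was left out. Sod2 and Sept9 were not called without the chow mouse, and Plpp3 and Tmem65 were not called without the chow or without the 3-day mouse.

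The other genes named for large decreases were Ly6a, Jun, Rnaset2b, Crlf2, Klf4 and Adap2os, with log2 differences between -0.41 and -0.37. Jun and Klf4, early response transcription factors, belong to the immediate-early list, of which 5 of 21 tested genes were lower and 0 higher, with a median of -0.16. Jun stood at 73.4, 95.5 and 79.2 CPM in Marco-high cells and 91.6, 122 and 107 CPM in Marco-zero cells. Klf4 stood at 20.9, 52.7 and 79.6 CPM against 21.2, 63.4 and 113 CPM, so that the gap was widest at 10 days; it was not called when any single mouse was left out. Ly6a, the Sca-1 gene, stood at 184, 164 and 63.0 CPM against 201, 241 and 89.5 CPM. Ly6a was not called without the 3-day mouse, nor Jun and Crlf2 without the chow or without the 3-day mouse. Adap2os was not called when any single mouse was left out.

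Proliferation genes were the list with the most increases. Of 21 tested, 9 were higher in Marco-high cells and 1 (H2afz) was lower, and the median log2 difference was 0.58. Top2a, the topoisomerase of dividing cells, stood at 29.8, 71.8 and 47.5 CPM against 19.4, 40.0 and 10.9 CPM, a difference of 1.03 ± 0.14 (edgeR's quasi-likelihood test, adjusted p = 1.1e-06). Mcm6, part of the replicative helicase, stood at 39.3, 20.7 and 39.2 CPM against 23.1, 11.3 and 18.1 CPM, a difference of 0.87 ± 0.14. Stmn1, a microtubule regulator, stood at 51.6, 44.4 and 44.1 CPM against 27.1, 37.0 and 12.8 CPM, a difference of 0.84 ± 0.14. Mki67 stood at 16.6, 24.4 and 18.1 CPM against 13.5, 17.3 and 7.17 CPM, a difference of 0.58 ± 0.19 with an adjusted p of 0.0724.

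Cells with 3 or more UMIs of proliferation genes made up 12.6% of Marco-high and 6.86% of Marco-zero cells in chow (exact Clopper-Pearson 95% intervals 10.1% to 15.5% and 4.99% to 9.16%). At 3 days the shares were 6.69% (4.98% to 8.78%) and 3.35% (2.16% to 4.94%), and at 10 days 8.54% (6.62% to 10.8%) and 3.39% (2.204% to 4.96%). The share was higher in the Marco-high class of each library. With these cells left out, which were chosen on the same genes, the proliferation list can no longer be tested; over all genes 92 were higher and 156 lower. Matching on the Kupffer share of UMIs as well as on depth left 2 of 22 proliferation genes higher, and a mitochondrial limit of 5% left 1 of 16. That limit kept 244, 292 and 84 pairs of cells, against 612, 717 and 738 in the main fit. Without the chow, 3-day or 10-day mouse 5, 6 and 6 were higher, and Top2a and Stmn1 were not called without the chow mouse. Without cells that held 2 or more UMIs of other cell types 0 of 12 were higher. H2afz was at 0.00454 against all Marco-zero cells, so its direction depended on the matching.

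**Figure D3:**
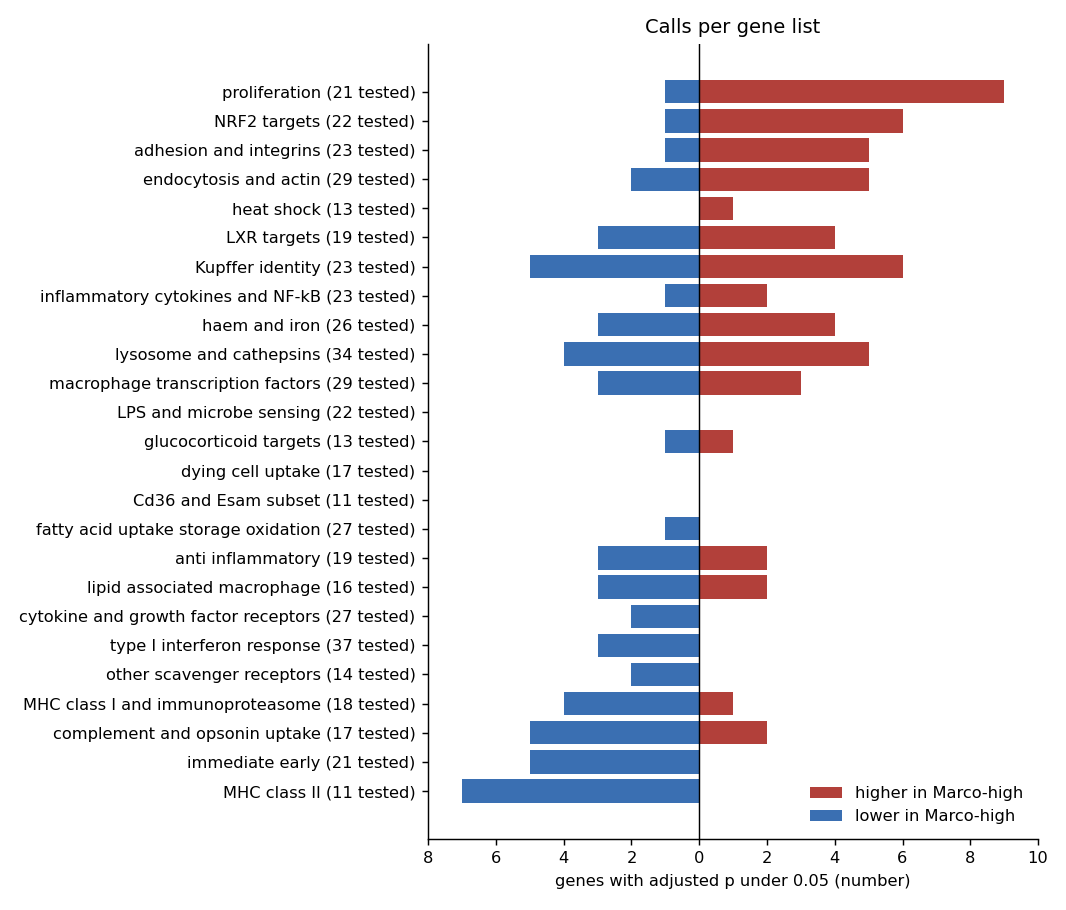
Number of genes called higher (right, red) or lower (left, blue) in Marco-high than in depth-matched Marco-zero cells (x axis) in each of 25 gene lists (y axis, with the number of members tested), at an adjusted p under 0.05. Proliferation shows 9 higher of 21, MHC class II 7 lower of 11, and the lists for dying cell uptake, microbe sensing and the Cd36 and Esam subset show 0. Over all genes tested 1.68% were called higher and 2.42% lower.

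Levels followed the number of Marco UMIs in all Kupffer cells, here without matching on depth and given as a description. Cxcl13 stood at 207, 151 and 107 CPM in cells with 0 Marco UMIs (chow, 3 days, 10 days) and at 730, 1053 and 711 CPM in cells with 10 or more. Hmox1 went from 1461, 2251 and 2576 CPM to 2147, 2916 and 3068 CPM. Apoe went from 13409, 12356 and 9713 CPM to 9606, 10248 and 6431 CPM, and Cd207 from 367, 295 and 330 CPM to 205, 201 and 199 CPM. The summed class II genes with Cd74 went from 15367, 11628 and 10852 CPM to 11153, 9277 and 8233 CPM. The steps between were not all in 1 direction: at 3 days Cxcl13 stood at 317 CPM with 3 to 4 Marco UMIs and at 220 CPM with 5 to 9. Cells with 10 or more Marco UMIs were deeper, with medians of 5547, 4258 and 4277 UMIs against 4463, 2986 and 2925 in cells without Marco.

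**Figure D4:**
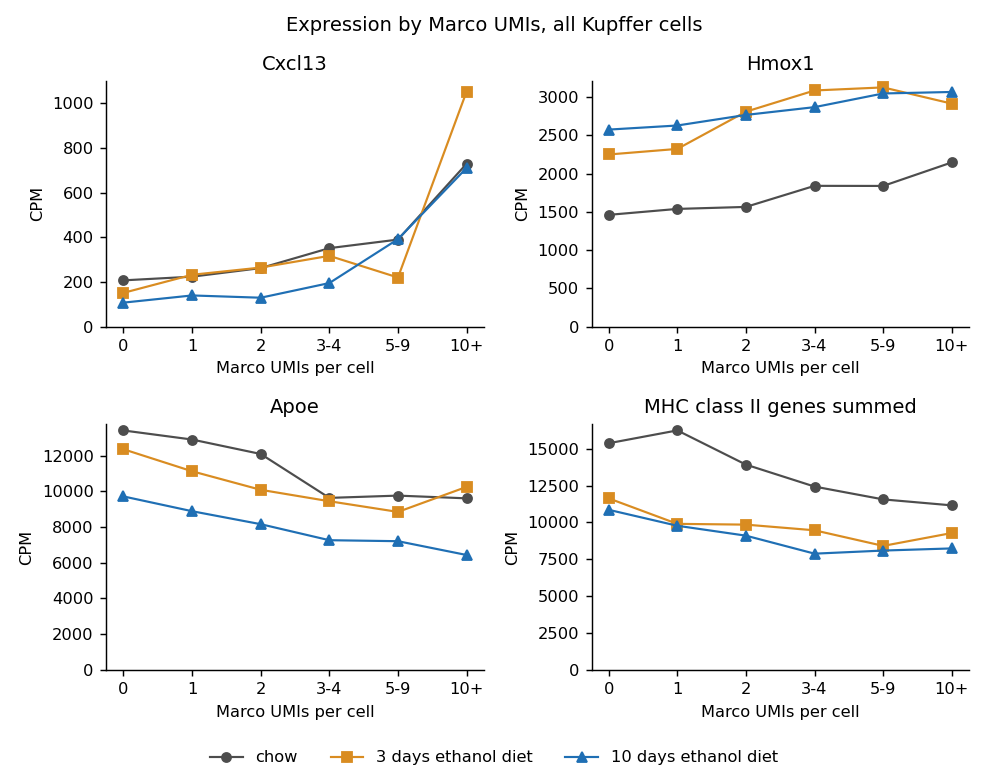
Summed expression (CPM, y axis) by Marco UMIs per cell (x axis) of Cxcl13, Hmox1, Apoe and the summed MHC class II genes in all Kupffer cells, 1 line per library. In cells with 10 or more Marco UMIs Cxcl13 and Hmox1 lay above, and Apoe and the class II genes below, the level of cells with 0 in each library.

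Some measures of the cells moved with the class. Matched Marco-high cells had a median mitochondrial share of 5.32%, 5.25% and 6.48% against 5.04%, 5.04% and 6.17% in Marco-zero cells. Their median share of UMIs from ribosomal protein genes was 12.8%, 12.4% and 10.4% against 13.5%, 13.6% and 10.98%. By the test, 51 of 80 ribosomal protein genes (symbols without pseudogenes, kinases and paralogs with a suffix) were lower and 1 was higher. Of all 99 tested symbols that begin with Rpl or Rps and a digit, 56 were lower and 1 was higher. With all Marco-zero cells instead of depth-matched ones 10 were lower and 2 higher, and after matching on this share too 18 were lower and 2 higher. The 230 lower genes had a median longest transcript of 1404.5 bases, against 3206 bases for the 160 higher genes and 3372 bases for the genes tested with a length in GENCODE vM21 on GRCm38. The part of these measures in the results was not tested. After matching on the ribosomal share, Cxcl13 (0.96), Hmox1 (0.35), Apoe (-0.48), Cd207 (-0.59), H2-Eb1 (-0.47) and Cd74 (-0.44) were called, while Cxcl9, Cxcl10 and Sdc4 were not, and 91 genes were higher and 115 lower in all.

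Marker genes of other cell types were summed per library and class. The summed level of 20 T and NK cell genes ranged from 164 to 238 CPM over the libraries in Marco-high cells and from 173 to 257 CPM in Marco-zero cells, that of 14 B and plasma cell genes from 161 to 264 CPM and from 168 to 269 CPM, and that of 16 endothelial genes from 302 to 325 CPM and from 301 to 359 CPM. The median Marco-high cell held 0 UMIs of the T and NK, stellate, cholangiocyte, neutrophil, peritoneal macrophage and erythroid lists. For 15 monocyte genes the ranges were 613 to 731 CPM and 617 to 673 CPM, with 1 member, Cx3cr1, lower. For 12 neutrophil genes they were 92.5 to 124 CPM and 81.1 to 121 CPM, with Ly6g, Camp, Ngp and Ltf at 0 in Marco-high cells. The dendritic cell list of 14 genes was lower, at 1701 to 2162 CPM against 2006 to 2467 CPM, and most of it was Cst3. Trf, Plac8 and Clec1b were the highest genes of the hepatocyte, monocyte and platelet lists.

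Some of these sums were lower in the Marco-high cells of every library, and 1 was higher. The sum of 15 stellate cell genes stood at 65.1, 64.3 and 53.5 CPM in Marco-high cells and 73.8, 81.1 and 77.02 CPM in Marco-zero cells. That of 20 hepatocyte genes stood at 1214, 1317 and 1113 CPM against 1396, 1500 and 1136 CPM, with 1 of 18 tested members, the transferrin gene Trf, lower. Trf alone stood at 658, 662 and 598 CPM against 796, 797 and 686 CPM. Alb, the next highest member, stood at 119, 94.0 and 85.6 CPM against 129, 107 and 69.1 CPM, so it was higher in Marco-high cells at 10 days. That of 10 platelet genes stood at 548, 599 and 449 CPM against 580, 634 and 510 CPM, with 1 of 2 tested members, Pf4, lower. Most of it was Clec1b, at 474, 515 and 422 CPM against 486, 541 and 470 CPM. The B and plasma cell sum was lower in each library as well. Most of it was Bank1, at 172, 126 and 196 CPM against 186, 124 and 225 CPM. The hepatocyte, platelet and B cell sums thus rested largely on single genes. The sum of 16 peritoneal macrophage genes was higher in each library, at 90.0, 95.2 and 103 CPM against 75.0, 82.2 and 98.5 CPM. Of its 5 tested members 0 were called. The erythroid sum differed in both directions, at 72.5, 85.01 and 586 CPM against 552, 264 and 35.9 CPM, and 0 of 4 tested members were called. The part of these cells in the results was not tested.

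The list of 10 liver capsule macrophage genes was lower in Marco-high cells, at 1289 to 1858 CPM against 1796 to 2428 CPM, with 3 of 7 tested members lower (Cd207, H2-Eb1 and Cx3cr1) and 1 higher (Cd209f). H2-Eb1 and Cd207 gave most of both sums. Cx3cr1, the fractalkine receptor gene, stood at 3.38, 5.64 and 5.66 CPM against 5.84, 32.8 and 28.3 CPM, a log2 difference of -2.16 ± 0.24, and 10 cells held 39.6% of its UMIs. Cd209f, a lectin gene, stood at 32.6, 25.6 and 7.54 CPM against 11.99, 14.3 and 3.02 CPM, a difference of 1.14 ± 0.19 that was not called without the chow mouse. Ccr2, the receptor of recruited monocytes, stood at 12.6, 11.3 and 8.67 CPM against 11.99, 26.8 and 10.9 CPM and was not called by edgeR's quasi-likelihood test (adjusted p = 0.117). The part of capsule or recruited cells in the class II and Cd207 results was not tested. Another setting left out cells that held 2 or more UMIs of other cell type genes. Those genes came from the T and NK, B and plasma, endothelial, hepatocyte, neutrophil and dendritic cell lists. The capsule and monocyte lists were not used, so this setting does not test the part of capsule or recruited cells. Cells left out by it made up 82.0%, 72.2% and 64.9% of matched Marco-high and 82.0%, 69.3% and 67.2% of matched Marco-zero cells. There remained 108, 199 and 254 pairs of cells, and 4 of 9 class II genes were called lower. Under this setting Cd207 was at -0.33 and was not called by edgeR's quasi-likelihood test (adjusted p = 0.197).

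Across the diets there was 1 Marco-high sum per library, so ratios have exact conditional binomial 95% intervals for counting error only and no test. A gene was counted when its ratio was at least 1.5, or at most 1/1.5, and its interval did not include 1. In Marco-high cells 140 of 3161 genes were higher at 3 days than in chow (4.43%) and 47 were lower (1.49%). At 10 days 219 of 3192 genes were higher than in chow (6.86%) and 92 were lower (2.88%). Between 10 and 3 days 82 of 3222 genes were higher (2.55%) and 65 were lower (2.02%). With TMM-scaled totals the counts were 111 higher and 64 lower at 3 days, and 151 higher and 145 lower at 10 days, so the excess of higher genes at 10 days rested on the scaling.

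At 3 days Ttc39c, a gene of little known function, stood at 147 CPM in Marco-high cells against 7.98 CPM in chow and 9.43 CPM at 10 days. The 3-day ratio to chow was 18.4 (12.4 to 28.6) in Marco-high and 16.2 (11.1 to 24.4) in Marco-zero cells. Ccl9, a CC chemokine, had a ratio of 8.11 (5.58 to 12.2) and of 10.3 (6.97 to 15.9) in Marco-zero cells. Vcam1 had a ratio of 2.99 (2.79 to 3.20), beside 2.95 (2.74 to 3.19). Acot1, Tcp11l2 and Klf4 followed with ratios between 2.52 and 2.89. The lowest 3-day ratios were those of the potassium channel gene Kcnj10 at 0.310 (0.234 to 0.404), the transferrin receptor gene Tfrc at 0.415 (0.320 to 0.532) and Asb2 at 0.418 (0.306 to 0.563). Tspan15, Sdf2l1 and Tgm2 lay between 0.476 and 0.4998.

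At 10 days the highest ratios to chow in Marco-high cells were those of Klf4 at 3.81 (2.89 to 5.08), the nuclear receptor gene Nr4a1 at 3.45 (2.66 to 4.52), Acot1 at 2.99 (2.22 to 4.07) and Bhlhe40 at 2.95 (2.17 to 4.05). In Marco-zero cells the Klf4 ratio was 5.32 (4.08 to 7.02). Ltc4s, the synthase of leukotriene C4, had a ratio of 2.90 (2.46 to 3.42), beside 3.79 (3.24 to 4.44). Cd36, the fatty acid receptor, had a ratio of 2.70 (2.38 to 3.06), beside 2.44 (2.15 to 2.77). The lowest were those of Ly6a at 0.343 (0.287 to 0.408), the platelet factor gene Pf4 at 0.361 (0.272 to 0.476), Adap2os at 0.375 (0.293 to 0.476) and Ms4a7 at 0.382 (0.294 to 0.493). The interferon-response genes Ifit3 and Ifi27l2a had ratios of 0.456 and 0.480. For all 24 ratios named by rule, Marco-high and Marco-zero cells lay on the same side of 1, and whether any ratio differed between the classes was not tested.

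**Figure D5:**
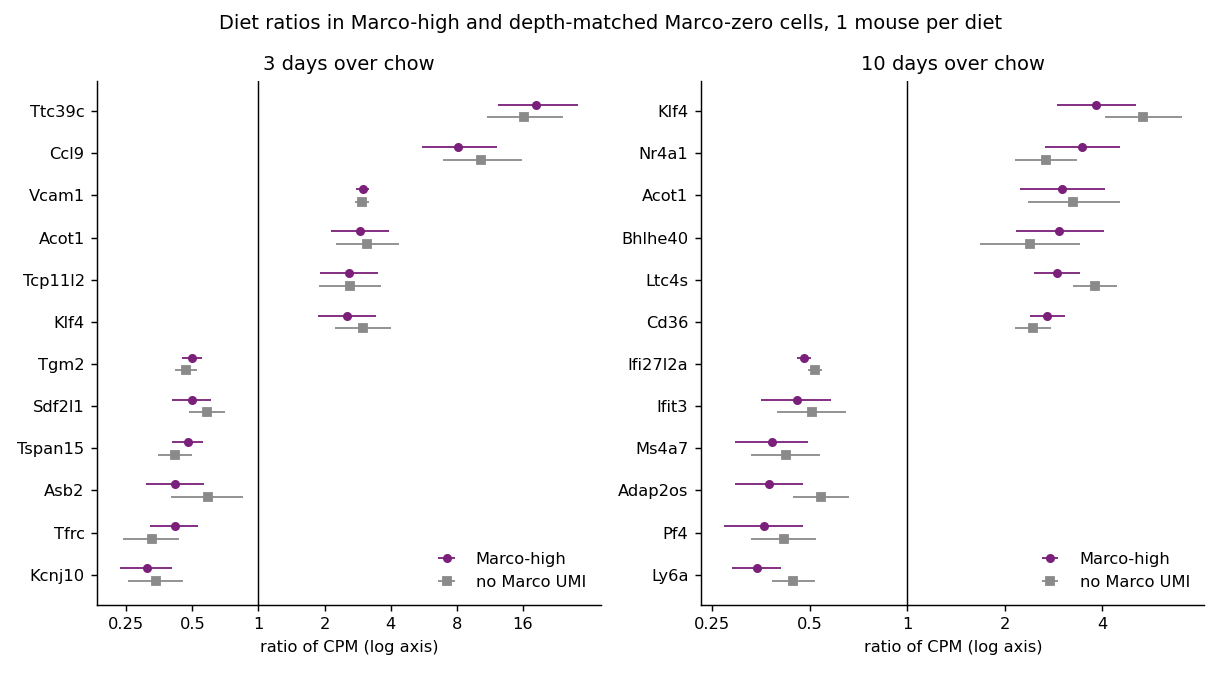
Ratios of CPM to chow (x axis, log scale) at 3 days and 10 days for the 6 highest and 6 lowest named genes (y axis), in Marco-high cells (purple circles) and depth-matched Marco-zero cells (grey squares). Bars are exact 95% intervals for counting error only, with 1 mouse per diet. Both classes lie on the same side of 1 for every gene shown.

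The genes that set the classes apart differed between the libraries as follows, with 1 mouse per diet. In Marco-high cells Cxcl13 had a ratio of 1.00 (0.922 to 1.09) at 3 days and 0.818 (0.749 to 0.892) at 10 days, beside 0.868 (0.770 to 0.978) and 0.522 (0.453 to 0.601) in Marco-zero cells. Hmox1 had ratios of 1.62 (1.57 to 1.68) at 3 days and 1.62 (1.57 to 1.68) at 10 days, beside 1.52 (1.46 to 1.58) and 1.72 (1.66 to 1.79). H2-Eb1 had ratios of 0.760 (0.725 to 0.796) and 0.634 (0.603 to 0.666), beside 0.781 (0.751 to 0.813) and 0.670 (0.642 to 0.699). Apoe had ratios of 0.922 (0.907 to 0.937) and 0.701 (0.689 to 0.713), beside 0.907 (0.895 to 0.920) and 0.712 (0.702 to 0.723).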

How the data were processed

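The deposited files hold raw UMI counts per gene and barcode for 3 libraries, with empty droplets still included. Per the submitters' processing notes, Cell Ranger 2.2.0 was used with GRCm38 and mm10 as builds. The release of the annotation is not given in the sources used here. Members and gene lists were chosen with earlier results of these data known. Marco-zero cells were drawn at random without replacement to match the number of Marco-high cells in each bin of 0.1 log2 units of UMIs other than Marco, and 6, 0 and 14 Marco-high cells had no partner. Counts were summed per library and class (2648792 to 3256145 UMIs per sum) and tested with edgeR 4.0.16 (R 4.3.3): TMM scaling, filterByExpr, quasi-likelihood fit with library as a term, Benjamini-Hochberg adjustment. The library is the pairing, since both sums of a pair come from 1 mouse. Marco, the 5 genes of the Kupffer rule and mitochondrially encoded genes were left out of the test. Low-count genes were filtered, and fold changes are on the log2 scale. DESeq2 1.42.0 was an alternative. The test was tried on simulated counts with known changes. Doublets were scored with Scrublet in scanpy 1.11.5. Of 28692 gene IDs, 28339 were found in GENCODE vM21. Reads of overlapping or near-identical genes may be shared between them.

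Named genes were the 12 highest and 12 lowest log2 differences among called genes with a mean of at least 50 CPM and the same sign in 3 libraries (without ribosomal protein, Gm, Rik and immunoglobulin genes), the 3 largest changes of each list at 20 CPM or more, a set of Kupffer markers, and the 6 highest and 6 lowest diet ratios, from genes of at least 50 CPM in 1 library of a pair. Not every list member picked this way is given in the text. Other genes were named after their values were seen: Cxcl9, Cx3cr1, Cd209f, H2-Aa, Fcer1g, Lpl, Fcna, Fth1, Ftl1, Nr1h3, Adgre1, Folr2, Id3, Trf and Pf4.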

Additional observations from a re-analysis of the deposited data

Results flagged for a closer look

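Barcodes outside the Kupffer rule entered no comparison. Among them, 2 or more Marco UMIs were seen in 1.74% in chow (4 of 230, exact Clopper-Pearson 95% interval 0.476% to 4.39%), 1.66% at 3 days (4 of 241, 0.454% to 4.19%) and 3.79% at 10 days (11 of 290, 1.91% to 6.69%). Each share was above the limit that a count of 0 allows (1.304%, 1.24% and 1.03%), and the lower bound was above that limit at 10 days alone. The highest Marco count of such a barcode was 13, 9 and 16 UMIs.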

How the results depend on the processing

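The counts of genes called higher and lower, 160 and 230, moved by more than 1.5 times, in at least 1 direction, under these settings. They were 66 and 54 with cells thinned to 1500 UMIs, 96 and 110 with at least 1 Marco UMI, 27 and 55 with at most 5% mitochondrial UMIs, and 13 and 26 without cells that held 2 or more UMIs of other cell types. They were 31 and 92 with DESeq2, and 48 and 89 with no filter on low counts. With no replicate block (the library not a term of the pairing) they were 1 and 0 by edgeR, with 263 genes at an unadjusted p under 0.05. With all Marco-zero cells 164 and 132 were called. Settings added after seeing the data gave 92 and 156 without proliferating cells, 86 and 127 with matching on depth and the Kupffer share, 91 and 115 with matching on depth and the ribosomal share, and 234 and 124 with plain totals. Leaving out 1 mouse gave 29 to 68 higher and 66 to 95 lower. The cause was not tested. Another random draw of matched cells gave 197 higher and 302 lower. Of the 160 and 230 genes of the main fit, 127 and 198 were called again with that draw. No gene called higher was called lower under another setting, or the reverse. All settings drew on the same 3 libraries, so this is no separate support. Shares of Marco-high cells in chow, at 3 days and at 10 days were 9.90%, 10.7% and 18.0% with cells thinned to 1500 UMIs. With cells thinned to 1000 UMIs they were 7.02%, 7.80% and 13.5%. They were 42.1%, 35.0% and 48.5% with at least 1 Marco UMI, 17.5%, 13.04% and 19.9% with at least 3, and 22.4%, 17.5% and 24.0% with at most 5% mitochondrial UMIs. TMM-scaled totals gave 145 genes lower at 10 days than in chow. Without proliferating cells Stmn1 turned to -0.0224 and Hmgb2 to -0.10. Those cells were chosen on genes of the same list, so this setting cannot test them. With at most 5% mitochondrial UMIs, on 244, 292 and 84 pairs of cells, Top2a turned to -0.0264, Ube2c to -0.24 and Hmgb2 to -0.0225. H2afz turned to 0.00454 with all Marco-zero cells and to 0.00222 with thinned cells, and Ftl1 to 0.00929 and 0.0268. A Kupffer limit of 5% was not run because too few Marco-high cells reached it. Sums rest on 1 mouse per diet, and genes under about 20 CPM rest on few UMIs.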
